A study of Mus musculus with 4 samples.

Results

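Sites without a gene label are positions that the authors called as methylated in RNA of Tet2 knockout (KO) leukemia cells but assigned to no transcript. They were chosen by a rule on annotation alone: the transcript field of the deposited table is empty and the position lies on chromosomes 1 to 19 or X. The rule found 25662 such positions of 506952 listed, or 5.06%. Beside them stand 479603 positions with a gene label on the same chromosomes and 1304 on spike-in sequences. Below they are called unlabelled and labelled sites. The samples were 2 Tet2 KO libraries and 2 wild-type (WT) libraries of poly(A) RNA from cultured mouse acute myeloid leukemia cells that carry NRAS and AE9a, a truncated AML1-ETO fusion protein, all bisulfite-converted. KO and WT cells shared NRAS and AE9a and the same medium, which held 50 ng/ml of SCF, 10 ng/ml each of IL-6 and IL-3, and the selection drugs puromycin (2 µg/ml) and G418 (1 mg/ml). Whether the replicates came from separate cultures, and whether the KO line is 1 clone, is not in the labels. Of the table's columns 0 hold WT values and 0 hold 1 library alone, so KO was not compared with WT, and each level below is the authors' pooled KO value. Tet2 itself had 0 unlabelled sites, so these sites give no check of its deletion.

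Tet2 is a dioxygenase that oxidises 5-methylcytosine in DNA and RNA, and its gene is often mutated in myeloid malignancies. Bisulfite deaminates unmodified cytosine to uracil, which is read as T, while 5-methylcytosine resists and is read as C. The level of a site is the fraction of used reads that still showed C. RNA reads outside annotated transcripts are commonly found past the annotated ends of genes, in unannotated first exons and long non-coding RNAs, and at processed pseudogenes, which are copies of mature mRNAs inserted elsewhere in the genome.

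The sequence under the unlabelled sites could be read near transcription starts, where promoter windows were at hand. Each window runs from 250 bases before to 50 bases after the start of a RefSeq gene. They are shown first because a bisulfite call is meant to rest on a cytosine. The 4 plus-strand stretches come from the windows with the most unlabelled sites among those whose upstream bases overlap no RefSeq gene span. The fifth is the 30-base minus-strand stretch with the most unlabelled sites in the upstream bases of a window. Gene spans were not excluded for it, and it lies inside the span of Usp7. These choices were made after the values were seen. Capitals mark the unlabelled sites, and each sequence runs 5′ to 3′ on the strand of its sites, from RefSeq's annotation of GRCm38.p6, the assembly also called mm10.
C1galt1, chr6:7845064-7845218, plus strand: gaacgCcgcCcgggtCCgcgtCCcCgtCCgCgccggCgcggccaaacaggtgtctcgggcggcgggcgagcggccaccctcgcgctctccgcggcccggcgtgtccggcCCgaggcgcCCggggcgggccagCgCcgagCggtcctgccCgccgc
Hypk, chr2:121456917-121457077, plus strand: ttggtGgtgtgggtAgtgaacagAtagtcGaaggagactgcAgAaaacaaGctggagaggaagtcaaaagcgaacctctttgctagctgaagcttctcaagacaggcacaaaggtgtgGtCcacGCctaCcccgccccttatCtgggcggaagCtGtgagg
1600020E01Rik, chr6:86527080-86527229, plus strand: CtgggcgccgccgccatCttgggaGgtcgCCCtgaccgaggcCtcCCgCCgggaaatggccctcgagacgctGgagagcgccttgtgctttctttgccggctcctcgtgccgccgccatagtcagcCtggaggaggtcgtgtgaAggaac
Setd1a, chr7:127777191-127777275, plus strand: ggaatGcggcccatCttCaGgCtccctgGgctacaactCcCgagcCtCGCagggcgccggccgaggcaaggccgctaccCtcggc
Usp7, chr16:8738422-8738451, minus strand: CCCgCcgCgggccgccccggggcCgcCgcC

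In the window of C1galt1, which encodes the galactosyltransferase that builds core 1 O-glycans, all 19 capitals fell on C. Their levels ran from 0.308 to 1 with a median of 0.979, at 11 to 33 covering reads, and 7 were called in both KO replicates. In the window of Hypk, which encodes a chaperone associated with the NatA acetyltransferase, 5 of 15 capitals fell on C, 6 on G and 4 on A. The level there was read at the G and A positions as well, with a median over the 15 sites of 0.636 and 2 calls in both replicates. The 1600020E01Rik stretch had 11 sites on C, 2 on G and 1 on A, with a median level of 0.8 and 6 calls in both replicates. In the window of Setd1a, which encodes a histone H3 lysine 4 methyltransferase, 9 of 13 capitals fell on C and 4 on G, with a median level of 0.7. At Usp7, a deubiquitinase gene on the minus strand, all 8 capitals fell on C, with levels of 0.2 to 0.375 and a median of 0.2365. These stretches thus range from sites on C alone to sites mostly on other bases, and the minus-strand one had low levels.

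Over all windows, 1384 unlabelled sites, 5.39% of them, had a reference base, and every one of these lies near a transcription start. Those on the plus strand include none on chromosome 18, which was also left out when the stretches were chosen. On the plus strand 755 of 1337 lay on C (56.5%, Clopper-Pearson 95% interval 53.8 to 59.1). G held 351 (26.3%, 23.9 to 28.7) and A held 231 (17.3%, 15.3 to 19.4). T held 0, which allows a share of up to 0.276%. The share on a base other than C was therefore 43.5% (40.9 to 46.2), beside 49.4% (48.0 to 50.9) of 4605 labelled plus-strand sites in the same kind of window. Of all bases in the windows with an unlabelled plus-strand site, 32.3% were C, 33.0% G, 17.2% A and 17.5% T. At the 5 positions on either side of the unlabelled sites T made up 15.3 to 17.2% of bases, so its absence was seen at the listed position alone among these 11. On the minus strand 43 of 47 unlabelled sites lay on C (91.5%, 79.6 to 97.6), beside 87 of 97 labelled ones (89.7%). Why plus-strand sites were listed at A and G was not tested.

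**Figure D1:**
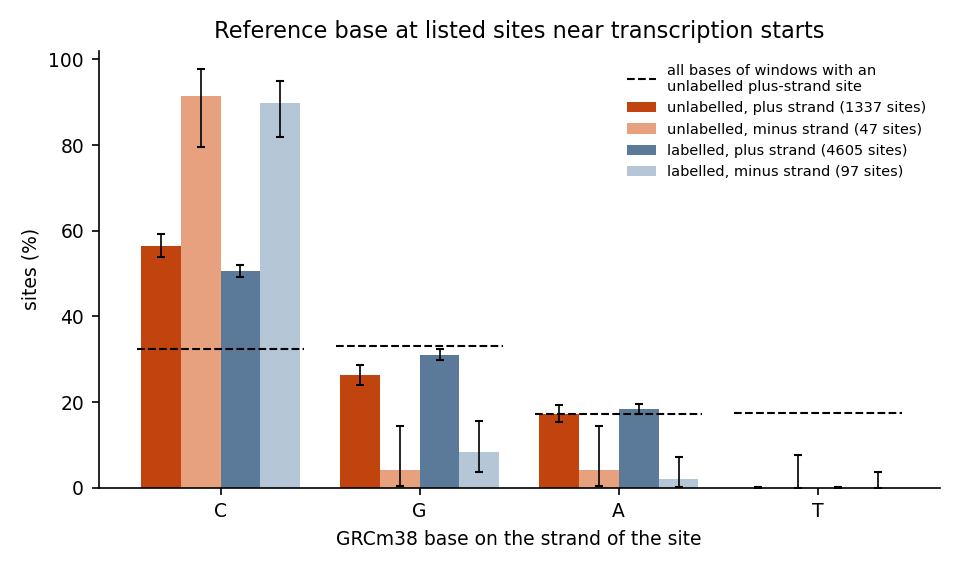
Share of listed sites (y axis, percent) on each GRCm38 base (x axis), for unlabelled and labelled sites of each strand, with 95% Clopper-Pearson intervals. The dashed lines give the base composition of all windows with an unlabelled plus-strand site. C held 56.5% of unlabelled plus-strand sites and 91.5% of unlabelled minus-strand sites, and T held none.

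Unlabelled plus-strand sites on the 3 bases differed in level and in reads. The median level was 0.727 on C, 0.706 on G and 0.615 on A. Median coverage was 18 reads on C and 14 on both G and A. The median share of covering reads that entered the level was 66.7% on C and 85.7% on both G and A. Calls in both replicates made up 17% on C, 8.55% on G and 10.4% on A. Labelled plus-strand sites had a like pattern, with median levels of 0.692 on C, 0.647 on G and 0.6 on A. Their median shares of reads used were 64.7, 84.8 and 85.7% on these bases, and 19.5, 9.15 and 9.6% were called in both. The share on C was 70.3% among the 182 unlabelled plus-strand sites called in both replicates, against 68.1% of labelled ones. It was 73.4% among 436 with at least 20 covering reads, against 59.6% of labelled sites at that coverage, and 80% among 120 with at least 30 reads, against 51.4% of labelled sites. Outside runs, which are groups of sites within 10 nt of each other, it was 44.2%, against 46.2% of labelled sites. The mixture also varied by place. Of 57 groups of 8 or more such sites, joined within 1000 nt, 6 had all of them on C, 15 had at least 80%, 20 had under 50% and 3 had none. Outside the windows no base was read, so it is not known which of the other unlabelled sites lie on a cytosine.

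The level of the 25662 unlabelled sites had a median of 0.545 with quartiles of 0.378 and 0.727, against 0.526 (0.364 and 0.700) at labelled sites and 0.500 at spike-in sites. A level of 1 was listed at 1374 unlabelled sites (5.35%), against 3.88% of labelled sites. Unlabelled sites were covered by fewer reads, with a median of 15, quartiles of 12 and 20 and a range of 10 to 190, against a median of 18, quartiles of 14 and 25 and a maximum of 552 at labelled sites. Only 362 unlabelled sites (1.41%) had 50 or more covering reads, against 4.65% of labelled sites. At sites called in 1 replicate the level rested on a median of 11 used reads, against 12 at labelled sites, and on never fewer than 10. With so few reads the level of a single site is imprecise, and Wilson intervals are given with the single sites named below that 1 replicate called.

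Both KO replicates called 3184 unlabelled sites (12.4%, 12.0 to 12.8), against 14.3% (14.2 to 14.4) of labelled sites. Coverage differed as well, with 44.9% of unlabelled sites but 30.6% of labelled sites at 10 to 14 covering reads. In that class the share called in both was 8.96% (8.45 to 9.5) of unlabelled and 8.74% of labelled sites. At 15 to 19 reads it was 13.9% against 14.2%, and at 30 to 49 reads 18.5% against 19.1%. At 20 to 29 reads it was 16.0% (15 to 17.1) of unlabelled against 18.1% (17.9 to 18.3) of labelled sites, and there the intervals did not overlap. Neighbouring sites share reads and loci, so these intervals cover counting error only. Where both replicates made the call, the listed SD of the level had a median of 0.05 for both kinds of site. The divisor behind that SD is not stated in these sources.

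**Figure D2:**
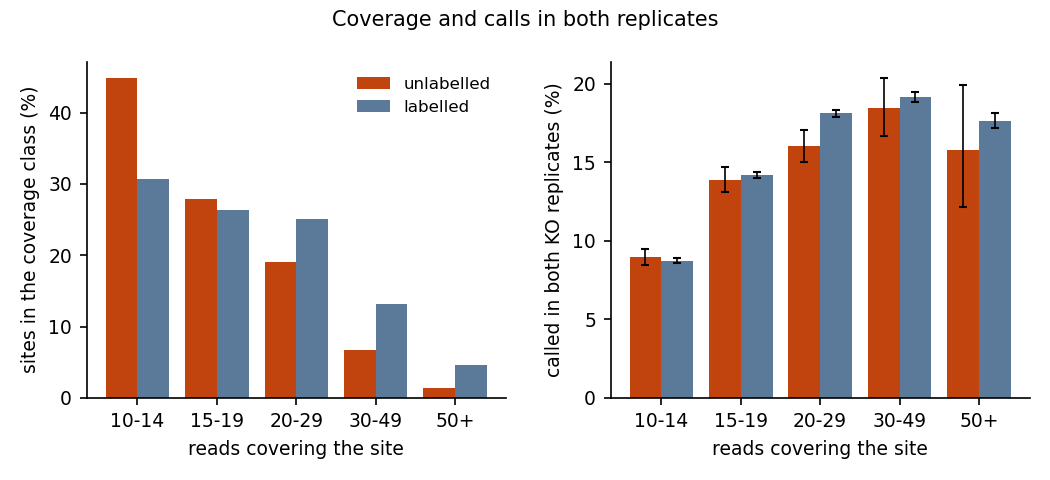
Left, the share of unlabelled and labelled sites (percent) in each class of covering reads. Right, the share called in both KO replicates (percent, 95% Clopper-Pearson intervals) in the same classes. In the lowest class, with 44.9% of unlabelled sites, the shares called in both were 8.96% of unlabelled and 8.74% of labelled sites.

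Nearly all unlabelled sites lay on the plus strand, 25310 or 98.6% (98.5 to 98.8), against 99.1% of labelled sites. The 352 minus-strand sites had a median level of 0.24, against 0.545 on the plus strand, and the 4197 labelled minus-strand sites had 0.231. Their median coverage was 18 reads. They were also more scattered. Of minus-strand unlabelled sites 40.3% had no other listed site within 1000 nt on their strand, against 1.05% of plus-strand ones. Among labelled sites this share was 53.8% on the minus strand and 0.682% on the plus strand. The 4 minus-strand loci with 10 or more sites, singled out after their values were seen, were Usp7 at chr16:8738346-8738642 with 18 sites and a median level of 0.264, chr17:36231382-36231599 with 15 sites and 0.353, chrX:170673499-170673539 with 12 sites and 0.373, and chr9:62374698-62374722 with 10 sites and 0.7295. The last lies opposite Anp32a, which encodes a phosphatase inhibitor, and both replicates called 7 of its 10 sites. All 4 medians lay above that of the minus-strand sites, 0.24, and the last also above that of the plus-strand sites. Why listed sites fall on the plus strand was not tested.

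Unlabelled sites came in dense runs. Another listed site lay within 10 nt on the same strand for 18571 of them (72.4%, 71.8 to 72.9), against 70.1% of labelled sites, and the next base itself was listed for 18.4%, against 17.6%. The share in runs was lower at high coverage, 61.4% at 30 to 49 reads and 47.5% at 50 or more with all neighbours kept. Among the 3184 sites called in both replicates, with neighbours of that kind alone counted, it was 36.2%, and with sites of 50 or more reads alone 37.0%. Unlabelled sites alone formed 5576 runs of at least 2 sites, with a median of 3 sites, a maximum of 20 and 125 runs of 10 or more. The longest, at chr4:115737816-115737898 in the span of Efcab14, placed 20 sites in 83 nt with a median level of 0.75. Joining unlabelled sites up to 1000 nt apart gave 2508 loci with a median of 4 sites (quartiles 2 and 11). Of these, 529 loci held a single site. At the other end 702 loci with 10 or more sites held 19478 sites (75.9%), and 252 loci held 50% of all. Loci of 10 or more sites spanned a median of 825.5 nt. A call in both replicates was present in 962 loci (38.4%).

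The nearest labelled site on the same strand lay a median of 2678 nt away (quartiles 820 and 22590), and the range was 1 to 10766279 nt. With 1 value per locus, its nearest site, the median was 7613.5 nt. It lay on the 5′ side for 17950 unlabelled sites (69.9%, 69.4 to 70.5), so that most unlabelled sites followed labelled RNA in the direction of transcription. At 1 to 100 nt there were 879 sites (3.43%), of which 39.9% had the label on their 5′ side, and their median level was 0.636. Over 100 and up to 1000 nt there were 6532 (25.5%), with 74.6% on that side and a level of 0.5605. Over 1000 and up to 10000 nt there were 10064 (39.2%), with 84.7% on that side and a level of 0.534. The 5′ side thus prevailed from about 100 to 10000 nt. Beyond that it did not: 52.1% of 5223 sites over 10000 and up to 100000 nt and 49.8% of 2964 farther sites had the label on their 5′ side, at median levels of 0.545 and 0.5. Minus-strand sites lay a median of 85663 nt from a labelled one.

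**Figure D3:**
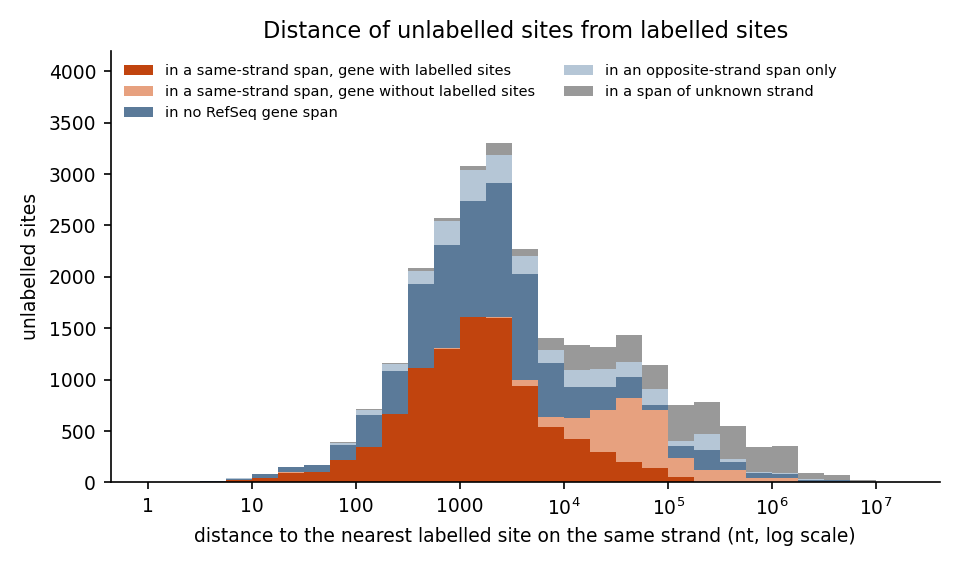
Number of unlabelled sites (y axis) by distance to the nearest labelled site on the same strand (x axis, nt, log scale), stacked by position relative to RefSeq gene spans. The median was 2678 nt. Sites in gene spans without labelled sites had a median of 50385 nt and those in spans whose strand the tables do not give 121802 nt, and all classes reach beyond 10000 nt.

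Although the authors' annotation gave them no transcript, 12209 unlabelled sites (47.6%, 47.0 to 48.2) lay inside the span of a RefSeq gene on their own strand, 716 genes in all. A further 8154 (31.8%) lay in no gene span, 2304 (8.98%) only in a span on the opposite strand and 2995 (11.7%) in a span whose strand the tables used here do not give. Of the sites inside same-strand spans, 10932 were in protein-coding genes and 1277 in long non-coding RNA genes. Genes that also had labelled sites held 9736 of them in 547 genes. None lay between 2 labelled sites of its gene, which may follow from how the labels were assigned and was not tested. In 321 genes 7170 sites lay 3′ of the last labelled site, and in 265 genes 2566 lay 5′ of the first. The 3′ sites had a median level of 0.524 and the 5′ sites 0.636, with 13.6% and 11.8% called in both replicates. They lay a median of 1438 nt and 1257.5 nt from the nearest labelled site of their own gene. The other 2473 sites were in 169 genes with no labelled site.

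Among sites 3′ of the last labelled one, Apobec3 had the largest locus of all. Apobec3 encodes a cytidine deaminase that restricts retroviruses. At chr15:79908625-79915711 it carried 256 unlabelled sites with a median level of 0.533 (quartiles 0.4 and 0.722), 17 covering reads and 52 calls in both replicates (20.3%). Its 63 labelled sites ended at 79908407, had a median level of 0.5 and were called in both in 15.9% of cases. So the labels stopped within the gene span and listed sites went on at a like level. Lcor, which encodes a nuclear receptor corepressor, had 270 such sites against 33 labelled ones, with median levels of 0.535 and 0.533. Its largest locus, chr19:41581964-41587652, held 189 sites at a median level of 0.5 and began 22587 nt from a labelled site. Gatad2b, which encodes a subunit of the NuRD chromatin complex, had 127 sites at chr3:90358238-90362971 with a median level of 0.508 and 27 calls in both replicates. Yy1, which encodes a zinc finger transcription factor, had 113 sites starting 28 nt past its last labelled site, with a median level of 0.6. The median level of all sites 3′ of the last labelled one lay between 0.508 and 0.6 in each of these 4 genes.

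Genes with unlabelled sites 5′ of their first labelled site were led by Rab44, which encodes a large Rab GTPase, with 141 sites, a median level of 0.537 and 14 calls in both replicates. Impact came next with 111 sites, 11 of them called in both, at a level of 0.545. Zmiz2, which encodes a PIAS-like transcriptional coactivator, had 89 sites, 20 of them called in both, at a level of 0.545. Nt5dc2 had 78 sites at 0.545, but only 2 were called in both. Ptgs1, which encodes cyclooxygenase 1, had 73 sites at 0.571, 7 of them called in both. They began 153 nt, 552 nt and 258 nt before the first labelled site of Rab44, Zmiz2 and Ptgs1 and reached 20949 nt, 4820 nt and 13840 nt before it.

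Rnf213, which encodes a very large E3 ubiquitin ligase, carried more unlabelled sites than any other gene and no labelled one. Its span, chr11:119389950-119487418 on the plus strand, held 682 unlabelled sites in 35 loci, 2.66% of all. Their level had a median of 0.536 (quartiles 0.384 and 0.7) at a median of 19 covering reads and at most 65, and 108 (15.8%) were called in both replicates. Its largest locus, chr11:119440368-119443748, had 139 sites with a median level of 0.583 and lay 48081 nt from the nearest labelled site of any gene. Stard9, which encodes a kinesin-like motor protein, had 151 sites and no labelled one, at a median level of 0.5 and 13 covering reads. The long non-coding RNA genes Gm14321, Gm46224 and Gm16201 had 75, 65 and 63 unlabelled sites at median levels of 0.619, 0.5 and 0.613. Coverage at Rnf213 was above the median of labelled sites, while at Stard9 it was below that of unlabelled sites.

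Outside same-strand spans the sites gathered past gene ends. Of the 13453 unlabelled sites not in such a span, 8127 (60.4%) lay within 10000 nt past the end of a same-strand gene and 3650 (27.1%) within 10000 nt before a start. A site can be near both. The end was the nearer for 7531 and the start for 2132, and 3789 (28.2%) had neither. Within 1000 nt, 3300 lay past an end and 1450 before a start. Of the 478 genes whose end was the nearer, 419 (87.7%) also had labelled sites, and these held 7002 (93.0%) of the sites past ends. Of all 18874 protein-coding genes with a strand, 39.7% had labelled sites. The 478 also include microRNA and long non-coding RNA genes, so the shares are not of like sets. The level was higher before starts than past ends. Its median was 0.643 (quartiles 0.46 and 0.833) for 1319 sites within 1000 nt before a start. It was 0.523 (0.364 and 0.701) for 3176 sites within 1000 nt past an end and 0.523 again over 1000 and up to 10000 nt past one. A level of 1 was listed at 10.8% of those before starts and at 4.41% of those within 1000 nt past ends. Labelled plus-strand sites in the promoter windows also had high medians, 0.692 on C, 0.647 on G and 0.6 on A. Over all labelled plus-strand sites the median was 0.529.

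Single genes show such stretches past their ends. Oip5os1, the long non-coding RNA also called Cyrano, had 129 sites 65 to 6633 nt past its end at a median level of 0.472, against 0.475 at 37 labelled sites. Xylt1, which encodes the xylosyltransferase that starts glycosaminoglycan chains, had 119 sites 79 to 5272 nt past its end at 0.5, against 0.5915 at 82 labelled sites. Abhd2, which encodes a lipid hydrolase, had 115 sites 10 to 3794 nt past its end at 0.5, with 21 calls in both replicates. Past the end of Trir, which encodes a ribonuclease that interacts with telomerase RNA, lay 118 sites, 34 of which (28.8%) both replicates called, against 15.8% of its 120 labelled sites. Their median level was 0.5235, against 0.583 at the labelled sites, and the next gene on the strand, Tnpo2, starts 2986 nt after the nearest of them.

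**Figure D4:**
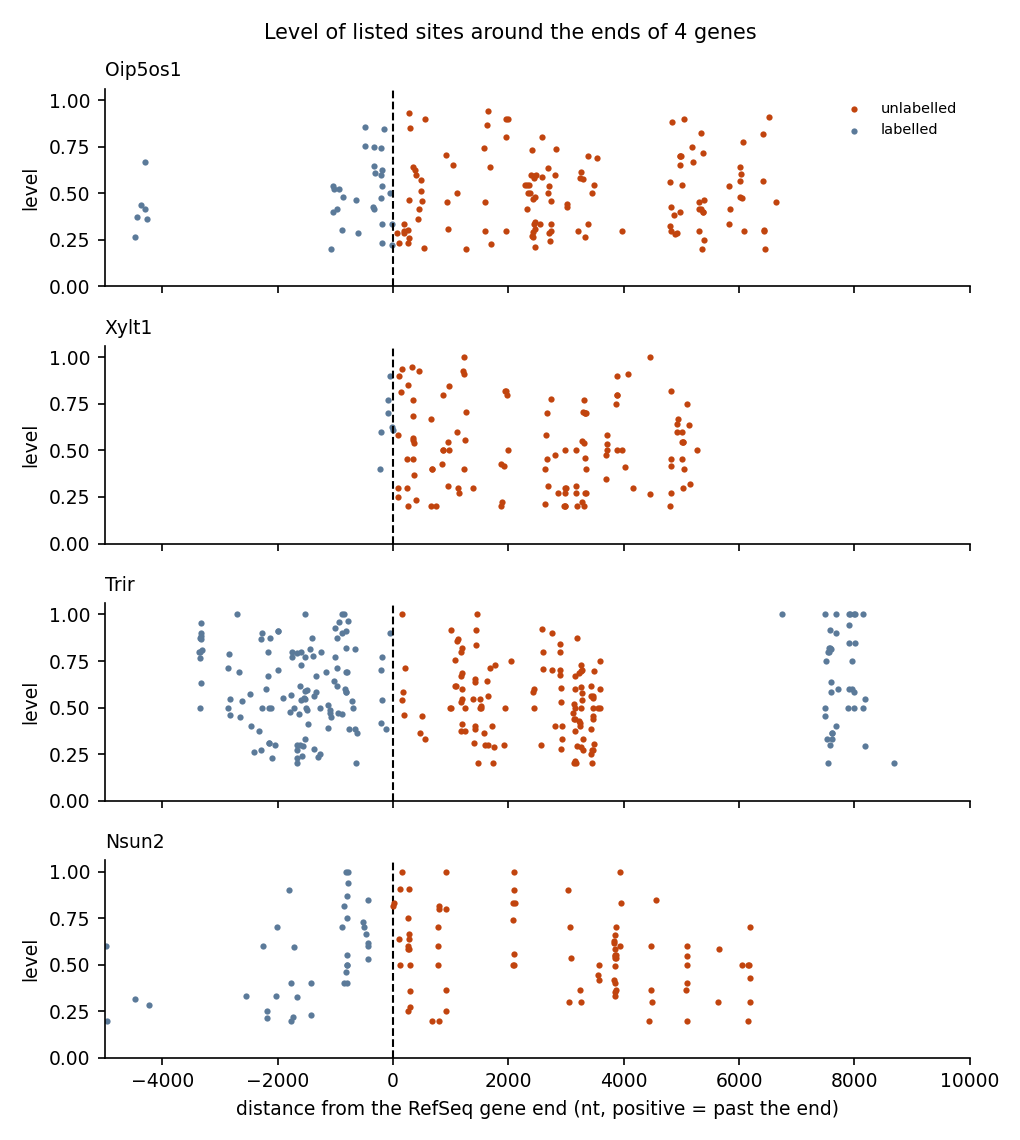
Level (y axis) of every unlabelled and labelled site from 5000 nt before to 10000 nt past the RefSeq gene end (x axis, nt in the direction of transcription) of Oip5os1, Xylt1, Trir and Nsun2. Unlabelled sites lie past the dashed line and spread over the whole range of levels as labelled ones do. The labelled sites on the right of the Trir panel lie past the start of Tnpo2, the next gene.

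Some loci past an end overlapped a gene on the opposite strand. Elk4, which encodes an ETS factor that acts with serum response factor, had 22 unlabelled sites in its span and 140 past its end, at 5 to 6063 nt, where Mfsd4a lies on the other strand. The locus, chr1:132025765-132032511, had a median level of 0.545 and 18 calls in both replicates. Srsf9, a splicing factor gene, had 36 sites in its span and 100 past it, opposite Gatc, at chr5:115333167-115337745 with a median level of 0.5065.

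One of the largest loci surrounds a microRNA cluster. At chr8:84201086-84209503, 142 sites lay around the hairpins of Mir23a, Mir27a and Mir24-2, which share a primary transcript. The deposited coordinates put 124 of them on the 5′ side of Mir23a and 15 on the 3′ side of Mir24-2. The nearest were 5 nt from that of Mir23a, 39 nt from that of Mir27a and 17 nt from that of Mir24-2. The median level was 0.636 (quartiles 0.4 and 0.794) at 16 covering reads, and 18 sites were called in both replicates. The authors' labels include microRNA genes, and Mir24-2 had 5 labelled sites, so the unlabelled sites do not show whether hairpins held listed positions.

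Pseudogenes made up most of the spans whose strand is not given. They held 2164 unlabelled sites (8.43%) in 451 pseudogenes, with a median level of 0.5 and a median of 170815 nt to the nearest labelled site. Gm11427 had 43 sites at a median level of 0.5, Tpm3-rs7 34 at 0.5, Gm6197 25 at 0.564 and Gpi-ps 21 at 0.455. Gm5977 had 18 sites within 49 nt, of which 9 were called in both replicates. Of the 5 loci of 10 or more sites farthest from any labelled site, 4 lay in pseudogene spans. Gm5863 at chrX:120160859-120161470 had 13 sites, a median level of 0.593 and 7788178 nt to the nearest labelled site. Impdh2-ps at chr8:100030677-100030865 had 10 sites at 0.4275, Gm12009 at chr11:15049329-15049772 had 12 at 0.667, and Gm5487 at chr16:53984047-53985765 had 11 at 0.5. The one outside any span, chrX:157429777-157429809, had 11 sites within 33 nt at 0.5. A processed pseudogene shares its sequence with a parent mRNA, so which copy these reads came from is uncertain. Among other spans of this class, Sfi1, Tmem132a, Nipbl and Trim17 had 57, 48, 39 and 36 sites. Their median levels were 0.538, 0.545, 0.76 and 0.611. The T cell receptor loci Tcrg and Tcra had 36 and 33 sites at median levels of 0.5695 and 0.545.

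The share of listed sites without a label differed between chromosomes. It was highest on chromosome 11, at 7.16% (6.93 to 7.39, 3416 sites), followed by 6.69% on chromosome 19 and 6.65% on chromosome 8, and lowest on chromosome 4, at 3.11% (2.92 to 3.31), against 5.08% over all 20 chromosomes. Rnf213 alone held 20% of the unlabelled sites on chromosome 11, and without it the share there was 5.81%. Other differences from labelled sites recurred chromosome by chromosome. Unlabelled sites had the lower median coverage on 20 of 20 chromosomes, 14 to 16 reads against 17 to 18. They had the lower share called in both replicates on 19 of 20, the exception being chromosome 12 with 14.5% of both kinds. Their median level was higher on 16 chromosomes and lower on 2, and their share in runs was higher on 17.

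**Figure D5:**
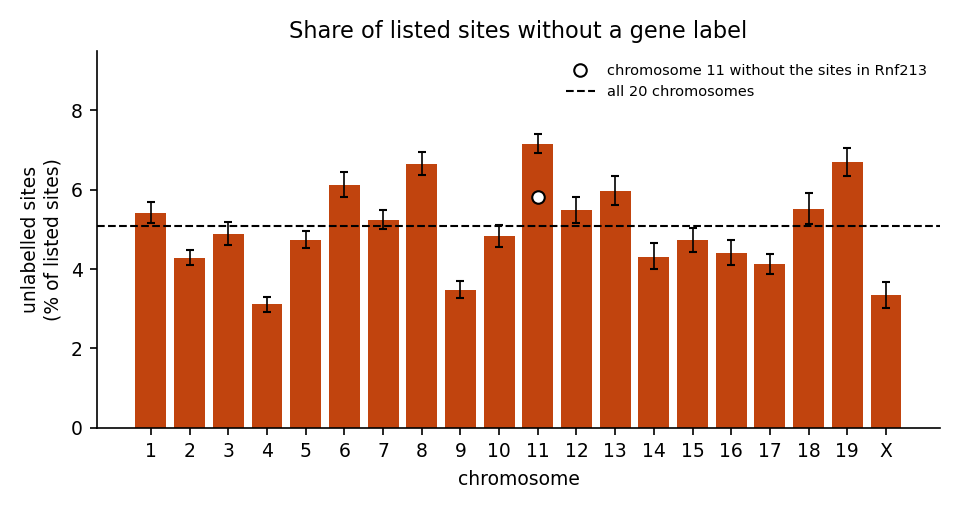
Share of listed sites that are unlabelled (y axis, percent, 95% Clopper-Pearson intervals) on each chromosome (x axis). The dashed line is the share over all 20 chromosomes, 5.08%. The circle gives chromosome 11 without the sites in Rnf213, 5.81% in place of 7.16%.

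In each gene list chosen for this tissue a minority of members had unlabelled sites. A gene counted where such a site lay in its same-strand span or had it as the nearest same-strand gene within 10000 nt. Of all 18874 protein-coding genes with a strand, 1172 (6.21%) did so and 7484 (39.7%) had labelled sites. Among 15 myeloid genes 5 (33.3%) had unlabelled sites, 25 in all, and 12 (80%) had labelled ones. The 5 were Elane and Prtn3, neutrophil serine proteases, with 6 and 5 sites, Ncf4, a subunit of the NADPH oxidase, with 8, the transcription factor gene Spi1 with 5 and the integrin gene Itgam with 1. The 6 counted for Elane start 484 nt past its end and lie in the span of a pseudogene, Gm19810. Of those counted for Prtn3, 1 lies 4 nt before its start, at chromosome 10 position 79879663. The other 4 lie farther upstream, at chr10:79874652-79874718. Among 15 stem cell and leukemia genes 4 (26.7%) had them and 12 (80%) had labelled sites: Gata2, a hematopoietic transcription factor gene, with 8 sites, Etv6, an ETS repressor gene, with 5, Myb with 2 on the minus strand, and the cell cycle kinase gene Cdk6 with 22 sites upstream of its first labelled one at a median level of 0.6415. None of these 4 had a call in both replicates. In this list the sites sat near 5′ ends, with 20 nt to the nearest start at Gata2, 187 nt at Etv6 and 191 nt at Myb.

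Of 17 genes for 5-methylcytosine enzymes and readers, 2 (11.8%) had unlabelled sites. Nsun2 encodes an RNA cytosine methyltransferase. It had 84 unlabelled sites 8 to 6193 nt past its end, with a median level of 0.545 (quartiles 0.391 and 0.7), 13 covering reads and 12 calls in both replicates (14.3%). Its 96 labelled sites had a median level of 0.571 at 21.5 reads, and 13.5% were called in both. Levels past the end thus stood near those inside the gene at fewer reads. Mbd2, which encodes a methyl-CpG-binding protein, had 42 unlabelled sites 3′ of its last labelled one, at a median level of 0.575 with 9 calls in both replicates. Of 13 glycolysis genes 3 (23.1%) had them, and 71 of the 73 sites lay 6 to 1683 nt past the end of Slc16a3, which encodes a lactate exporter. Their median level was 0.5, as at its 131 labelled sites, but 5.63% were called in both replicates against 12.2%. Of 15 pancreas genes 0 had unlabelled sites, which at a share of 6.21% over all protein-coding genes says little about a list of that size. As for the identity of the cells, labelled sites were present in 7 of 8 markers of leukemic myeloid cells but also in 6 of 6 pancreatic islet markers. Unlabelled sites were present in 4 of the 8 and in 0 of the 6, and the list of 6 is too short to read a share from. What the islet labels mean for the unlabelled sites was not tested.

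The unlabelled sites with the highest levels at 50 or more covering reads were few reads deep in most cases. The site at chromosome 10 position 81365961 lies in the span of Mfsd12, which encodes a lysosomal cysteine transporter. There 66 of 66 used reads of 81 covering it were counted as unconverted (level 1, Wilson interval 0.945 to 1). At chromosome X position 87238384, opposite Il1rapl1, it was 77 of 79 used reads of 96 (0.975, 0.912 to 0.993). Both had many used reads, but the reference base was read at neither. Where it was read, unlabelled plus-strand sites with 30 or more covering reads used a median of 34.2% of them on C. The median was 81.4% on G and 81.9% on A. Whether these 2 sites lie on a cytosine is thus not known. The sites in Arhgef7 on chromosome 8, Mgat5 on chromosome 1 and 2 nt before Abhd17b on chromosome 19 also had a level of 1, but from 15, 10 and 11 used reads of 66, 58 and 52, with Wilson intervals from 0.796, 0.722 and 0.741 up to 1. Sites in Gigyf1, Atxn7l1 and Exoc4, and one 58 nt before Cmip, had levels of 0.929 (0.685 to 0.987), 0.917 (0.646 to 0.985), 0.9 and 0.9 (both 0.596 to 0.982) from 10 to 14 used reads. The site in Ptp4a2, at chromosome 4 position 129820301, had 38 of 42 used reads counted as unconverted (0.905, 0.779 to 0.962) and lies on a G of the reference. The base was also read at the sites before Abhd17b and before Cmip, and both of these lie on C.

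The 5 loci whose top site had the most covering reads had low levels at it. At Rn7sk, the 7SK small nuclear RNA, the site at chromosome 9 position 78175352 on the minus strand was covered by 190 reads and kept 21 of 81 used reads (0.259, Wilson interval 0.176 to 0.364). The site in Tmem234 at chromosome 4 position 129607900 had 188 covering reads and a mean level of 0.24 over both replicates, with a listed SD of 0.003. A minus-strand site in Irf2bp2, which encodes a transcriptional corepressor, kept 17 of 84 reads (0.202, 0.130 to 0.3), a site 721 nt past the end of Cd47, which encodes the ligand of SIRP alpha, kept 20 of 80 (0.25, 0.168 to 0.355), and a site in Gm4977 kept 17 of 76 (0.224, 0.145 to 0.329). All 5 lay close to the lowest level in the list, 0.2. Some other deep sites, chosen after their values were seen for the number of used reads, had higher levels. On chromosome 3 position 62159216 kept 82 of 111 used reads, of 134 covering it (0.739, 0.650 to 0.811). On chromosome 15 position 60468316 kept 62 of 105, of 130 (0.59, 0.495 to 0.680). On chromosome 11 position 61147654, in Tnfrsf13b, kept 46 of 97, of 121 (0.474, 0.378 to 0.573). No reference base was read at these or at the 5 most covered sites. The share of reads used differs between bases, as given above, so whether these sites lie on a cytosine is not known. Over all unlabelled sites, those with 50 or more covering reads had a median level of 0.4345, against 0.434 of labelled sites in that class.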

How the data were processed

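The deposited table holds 1 line per position called in the Tet2 KO libraries. Per the file headers, the authors gave the level as a fraction, with reads covering the site and unconverted cytosines as read counts; where both replicates made the call, these 2 numbers are a score, the authors' rounded mean. A normalized coverage was deposited and not used. Combined p-values are the authors', at most 0.000114 here. The build, mm10, is from the submitters' processing notes; the aligner and caller are not stated there. There were 0 columns from another series. The design planned 70000000 reads per sample; library totals were not used.

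Reads used were taken as unconverted reads over the level, whole at 100% of 22478 single-replicate sites (tolerance 0.0006). RefSeq spans of 49997 genes (GRCm38.p6) had a strand from promoter and microRNA tables (28097 genes) or from labelled sites, 29584 in all; both sources gave the same strand for 6270 of 6271 genes. Of 7818 labels, 7804 matched. Promoter sequences gave the base at a site.

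Unlabelled sites are described with no test, since groups of sites share reads and libraries. Intervals are Clopper-Pearson for shares and Wilson for levels, at 95%, and cover counting error only. Runs were sites within 10 nt, loci joined sites within 1000 nt. Named were the 10 loci with most sites, the 5 with most sites called in both replicates, the 5 farthest from labelled sites with 10 or more sites, the 10 highest sites at 50 or more reads and the 5 most covered, with ties to coverage. One locus that this rule names is not reported here. Other genes named belong to a list or were chosen after their values were seen, among those with many sites of their class. Members, lists and rules were chosen with earlier results of these data known. Distances and runs were tested on simulated data. Python 3.11.15, pandas 2.3.3, NumPy 2.4.6, SciPy 1.17.1 and matplotlib 3.10.9 were used. Alternatives were coverage of 20, 30 and 50 reads, combined p at or below 1e-06, calls in both replicates, other run and locus lengths, 1 value per locus and sites outside runs. The base analysis and the omission of Rnf213 were added after the data were seen.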

Additional observations from a re-analysis of the deposited data

Results flagged for a closer look

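The table also lists sites outside the chromosomes described above. The mitochondrial genome had 128 sites without a gene label, 124 of them on the plus strand, with a median level of 0.2705 and a median coverage of 25.5 reads, and 25 were called in both replicates. Chromosome Y had 22 unlabelled sites of 255 listed.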

How the results depend on the processing

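Of 64 recalculated values, 41 moved beyond the limits set for them and 23 did not. The 23 include those for chromosomes 1 to 19 and X alone, which repeat the rule for the sites and could not move. At coverage of 20, 30 and 50 reads or more, 6965, 2078 and 362 sites were left, 16.6, 18.0 and 15.7% called in both replicates, 97.6, 96.0 and 92.0% on the plus strand, 58.0, 45.6 and 37.0% in runs and 55.1, 61.1 and 62.4% in a same-strand span, at a median distance of 2371, 2570.5 and 3726 nt. The median level was 0.4815 at 30 and 0.4345 at 50 reads, and 1174 loci were left at 20 reads. With combined p at or below 1e-06 the level was 0.6, with 14.1% called in both, 99.3% on the plus strand and 70.1% in runs. The 3184 sites called in both gave 98.9% on the plus strand, 36.2% in runs, 3597.5 nt and 49.3% in a span. Runs within 5 and 25 nt held 55.5 and 87.5%. One value per locus gave 7613.5 nt and 9.25% called in both, and sites outside runs gave 10.1%. Without Rnf213 the distance was 2526.5 nt and the share in a span 46.1%. The share on a base other than C was 29.7% for calls in both replicates, 26.6% at 20 reads, 20% at 30 and 55.8% outside runs. The cause of the shifts was not tested.

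No paired analysis was possible because the table gives no value per library, and leaving out each replicate was not run for the same reason. A list of called positions at 10 or more reads sets no limit on positions that are not listed.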
